A study of Mus musculus with 8 samples.

Results

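Transcripts of 10 genes that belong to the YAP programme were followed in embryonic mouse pancreas after recombination of Sox9 and in wild-type littermates. The set held Yap1, its DNA-binding partners Tead1 and Tead2, and 7 genes used as readouts of YAP: Ankrd1, Ctgf, Cyr61, Jub, Amotl2, Axl and Lats2. Their probes were taken by name: every non-control probe whose array annotation carries one of these symbols was taken, which gave 14 of the 41174 probes. They stand for 10 of the 19754 named genes on the array. Ankrd1 was the member that differed most, with a level 6.91 times higher in Sox9 mutants, and Jub (now Ajuba) rose 1.30 times. Cyr61 (now Ccn1) was 1.55 times higher on average, with an adjusted p of 0.065. Over 20 alternative settings of the processing and the fit, Ankrd1 was called in 12, Jub in 9 and Cyr61 in 5. The 2 genotypes were on separate slides, so that slide and genotype cannot be told apart. Yap1, Tead2, Amotl2, Axl, Lats2 and Ctgf (now Ccn2) did not pass the test in either direction, and the 1 Tead1 probe of the set was too dim to be tested.

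Epithelia of the whole pancreas, dorsal and ventral, were dissected by hand from embryos at e15.5 (embryonic day, counted from the vaginal plug). The 4 mutant samples were Sox9fl/fl; Rosa26-CreER, and the 4 wild-type samples were littermates with Rosa26-CreER and without the floxed Sox9 alleles. Dams of both groups had received tamoxifen in corn oil (6 mg per 40 g) at e12.5, so that both groups carried the recombinase and were exposed to the drug for 3 days. The Sox9-flox line had a background mixed from FVB/N, C57Bl/6J and CD1, and the Rosa26-CreER line was on C57Bl/6J. The Rosa26 locus is active in nearly all cell types, so the recombinase is not limited to epithelial cells. Each sample pooled the pancreata of 4 embryos, and the spread given here is that between pools. The arrays were Agilent oligonucleotide arrays read in 1 colour (Cy3), each with cRNA made from about 250 ng of total RNA.

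YAP is a transcriptional coactivator with no DNA-binding domain of its own. In the Hippo pathway the kinases MST1 and MST2 (genes Stk4 and Stk3) activate LATS1 and LATS2, which phosphorylate YAP and its paralogue TAZ (gene Wwtr1) and hold them in the cytoplasm. Unphosphorylated YAP enters the nucleus and binds TEAD factors, which recognise the motif GGAATG. In the embryonic pancreas YAP is found in progenitor and ductal cells and is lost from endocrine cells as they form, and SOX9 is a transcription factor of the same progenitor and ductal cells. Ankrd1, Ctgf and Cyr61 are the transcripts most often used to read YAP activity. Jub, Lats2 and Amotl2 encode regulators of the pathway itself, and the last 2 also inhibit YAP.

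The sequence before the transcription start is shown for the 3 members whose mutant and wild-type arrays did not overlap on the probe used for the gene. Each line gives the 250 bases before the start, 5′ to 3′ on the gene's own strand, from RefSeq on GRCm38.p6. Capitals mark GGAATG or its reverse complement CATTCC. Ankrd1 lies on the minus strand, at chr19:36119845-36120094, with matches that begin at positions -210 and -123 from the start. The Jub sequence, also on the minus strand, is chr14:54577662-54577911, with matches that begin at positions -186 and -164. For Cyr61 it is chr3:145649986-145650235, minus strand, with 1 match that begins at position -103.
Ankrd1: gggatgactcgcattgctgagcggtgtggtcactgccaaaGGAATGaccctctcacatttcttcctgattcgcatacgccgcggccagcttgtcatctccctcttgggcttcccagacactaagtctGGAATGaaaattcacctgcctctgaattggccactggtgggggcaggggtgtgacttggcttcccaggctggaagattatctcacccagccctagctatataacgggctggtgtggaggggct
Jub: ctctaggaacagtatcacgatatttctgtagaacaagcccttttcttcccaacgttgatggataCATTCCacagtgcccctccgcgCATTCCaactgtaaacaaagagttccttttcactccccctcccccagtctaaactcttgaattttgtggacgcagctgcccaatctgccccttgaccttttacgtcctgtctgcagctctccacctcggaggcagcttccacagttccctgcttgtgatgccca
Cyr61: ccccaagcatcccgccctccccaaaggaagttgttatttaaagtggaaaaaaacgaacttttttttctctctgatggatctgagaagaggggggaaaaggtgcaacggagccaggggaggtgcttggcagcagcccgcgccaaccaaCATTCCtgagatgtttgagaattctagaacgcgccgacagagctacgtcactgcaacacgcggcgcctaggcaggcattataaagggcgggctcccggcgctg

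A RefSeq promoter was found for 8 of the 10 members, with 9 start sites, and not for Ctgf or Tead1. In windows of 250 bases before to 50 bases after the start, GGAATG on either strand was present in 7 of the 8 members. Tead2 held none, nor did the second start site of Lats2, and the match of the first Lats2 site lay after the start, at position 4. Of 32851 promoter windows of this length in the table, 14.7% held the motif. Members are counted per gene, by any start site, and the share of all promoters per window, so the counts are not like for like. The set holds genes known as YAP readouts, and the difference was not tested. AACAAT, a core that SOX proteins bind, was present in 1 member, Lats2, against 10.7% of all windows. The CArG box, which serum response factor binds, was present in 0 of the 8 members, against 1.6% of all windows. The 3 motifs were searched on both strands, a match is a description of the letters, and a window without a match says nothing about the factor. None of the 3 motifs contains another.

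The deleted gene was examined first. The Sox9 probe with the highest mean level over all arrays fell from 1.83 ± 0.07 to 0.50 ± 0.08 (log2 level, SD, n = 4 each). Its log2 fold change was -1.33, with a limma adjusted p of 8.05e-04. This left 39.8% of the wild-type level. A second Sox9 probe fell by 2.51 on the log2 scale, to 17.6%. Another, dimmer Sox9 probe gave a log2 fold change of 0.63 (probe-level adjusted p = 0.342). It was 0.23 without mutant replicate 2. Which of these probes lie in the loxP-flanked stretch was not determined here. All log2 levels are relative to the 75th percentile of their own array, so a level of 0 equals that percentile and negative levels lie under it.

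The arrays limit what a difference can be ascribed to. All wild-type arrays were on 1 slide from 1 scan run and all mutant arrays on another, so that slide and genotype cannot be told apart. Mutant replicate 2 stood apart: its median processed signal was 735 units against 199.99 to 252 on the other 7 arrays, and 85.9% of its probes were well above background against 69.0% to 73.4%. Its median Pearson r with the other mutant arrays, over the 1 probe used for each gene, was 0.923. For the 7 others, with arrays of their own genotype, it was 0.994 to 0.996. Several dim probes of mutant replicate 2 read high, though not all did. Calls are therefore given with all 8 arrays and without this one. With all 8 arrays, 409 of 19384 features (genes, or transcripts without a current name) were called higher in mutants at an adjusted p under 0.05, and 663 were called lower. Without mutant replicate 2 these counts were 1313 and 2049.

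Yap1, the coactivator, had 1 probe (chr9:7933061-7933120, mm8, minus strand). Its log2 levels were -0.05, 0.08, -0.15 and -0.21 in wild-type replicates 1 to 4 and -0.20, -0.16, -0.24 and -0.15 in mutant replicates 1 to 4. The 4 mutant arrays lay within the range of the wild types except replicate 3, which was just under it. This gave Yap1 a log2 fold change of -0.10 (95% interval -0.28 to 0.08, adjusted p = 0.412). The interval leaves room for a fall to 0.82 times or a rise to 1.05 times. The array measures the Yap1 transcript and neither the amount nor the phosphorylation of the protein.

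Tead2, a TEAD factor prominent in embryonic tissue, had 2 probes at log2 levels above 2 on all 8 arrays. On the brighter one (chr7:45101486-45101545, mm8, plus strand) the wild types were at 2.79, 2.83, 2.74 and 2.76 and the mutants at 2.70, 2.73, 2.92 and 2.73. The mutant arrays were spread around the wild types, with replicate 3 the highest of all 8. For Tead2 this was a log2 fold change of -0.01 (95% interval -0.17 to 0.15, adjusted p = 0.95). On the other Tead2 probe the log2 fold change was 0.01 (probe-level adjusted p = 0.958).

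Tead1, its paralogue, was read by the chosen probe at the floor of the array. That probe (chr7:112690667-112690726, mm8, plus strand) was not well above background on any wild-type array and was above it on 1 mutant array only, replicate 2. Its log2 levels were -6.24, -6.64, -6.83 and -7.14 in the wild types and -6.41, -3.27, -6.54 and -6.78 in the mutants. Without the high value of mutant replicate 2 the groups lay over each other, and the log2 difference went from 0.96 to 0.14. With all 8 arrays the exact two-sided permutation p was 0.314. RefSeq assigns to Tead1 another 2 probes that the array names 2610024B07Rik, which are outside the set. The brighter of them stood at 2.53, 2.53, 2.46 and 2.51 in the wild types and at 2.47, 2.33, 2.36 and 2.37 in the mutants. It gave Tead1 a log2 fold change of -0.12 (95% interval -0.26 to 0.01, adjusted p = 0.224). The dimmer one gave 0.35 (probe-level adjusted p = 0.353).

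Jub was the regulator of the pathway that rose. It encodes Ajuba, a LIM-domain scaffold protein that binds LATS kinases and restrains their action on YAP. On its probe (chr14:53522180-53522239, mm8, minus strand) the wild types were at 0.34, 0.39, 0.41 and 0.42 and the mutants at 0.77, 0.67, 0.80 and 0.82. All 4 mutants lay above all 4 wild types, and the wild types were tightly grouped, with a mean of 0.39 ± 0.03 against 0.77 ± 0.06 (SD, n = 4 each). Jub differed by 0.37 on the log2 scale, with a standard error of 0.0587 (95% interval 0.24 to 0.51, adjusted p = 0.0163). The difference of Jub was 0.41 without mutant replicate 2 (adjusted p = 0.00349). With any of the other arrays left out except wild-type replicate 4, the adjusted p of Jub was over 0.05, between 0.0541 and 0.0639. RNA of all cells in the dissected epithelia was profiled together. More RNA per cell and more cells of a type that carries the transcript thus cannot be told apart, for Jub and every other gene here.

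Lats2, a kinase that phosphorylates YAP and is itself a YAP target, had 4 probes. On the brightest (chr14:56644080-56644139, mm8, minus strand) the wild types were at 0.46, 0.44, 0.39 and 0.49 and the mutants at 0.57, 0.34, 0.54 and 0.50. The groups overlapped, since mutant replicate 2 was the lowest array and the other 3 mutants the highest. Its log2 fold change was 0.04 (95% interval -0.12 to 0.20, adjusted p = 0.705), and 0.09 without mutant replicate 2 (adjusted p = 0.239). A second Lats2 probe, which shares 32 bases of genome with the first, gave -0.07 (probe-level adjusted p = 0.657). Another, dimmer Lats2 probe (chr14:56645246-56645305) separated the groups, with wild types at -2.28, -2.22, -2.23 and -2.29 and mutants at -2.08, -1.12, -1.94 and -1.90. Its log2 fold change was 0.49 (probe-level adjusted p = 0.201) with all arrays and 0.28 (0.0298) without mutant replicate 2, which was by far its highest array. The fourth Lats2 probe gave 0.36 with all arrays (probe-level adjusted p = 0.461) and 0.05 without mutant replicate 2. None of the 4 Lats2 probes passed the test with all 8 arrays, and their 95% intervals overlapped.

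Amotl2, an angiomotin that holds YAP at cell junctions and is induced by it, did not pass the test. Its probe (chr9:102590845-102590904, mm8, plus strand) read 0.82, 0.91, 0.82 and 0.96 in the wild types and 0.77, 0.66, 0.87 and 0.71 in the mutants. Mutant replicate 3 lay inside the wild-type range and the other 3 under it. Its log2 fold change was -0.12 (95% interval -0.28 to 0.04, adjusted p = 0.312).

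Ankrd1 rose most. It encodes a nuclear ankyrin-repeat protein known from stretched heart and skeletal muscle, and is a direct YAP and TEAD target in many cell types. Its probe (chr19:36177463-36177522, mm8, minus strand) was well above background on all 8 arrays but dim in the wild types, at 85.1, 93.4, 76.8 and 119.7 signal units. The mutants read 998, 715, 276 and 1203 units. As log2 levels the wild types were at -4.53, -4.46, -4.60 and -4.20 and the mutants at -1.20, -1.77, -2.89 and -0.77. The lowest mutant, replicate 3, was still above the highest wild type, and the mutant arrays were far more spread, with an SD of 0.92 against 0.17. The log2 fold change of Ankrd1 was 2.79 with a standard error of 0.424 (adjusted p = 0.0148), and its 95% interval ran from 3.48-fold to 13.7-fold. It was 2.83 without mutant replicate 2 (adjusted p = 0.0103). The adjusted p of Ankrd1 was 0.0555, 0.0509 and 0.0559 without wild-type replicate 1, 2 or 3, respectively, and under 0.05 with any other single array left out.

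Cyr61 and Ctgf encode secreted matricellular proteins of the CCN family and are the usual companions of Ankrd1 as YAP readouts. The Cyr61 probe (chr3:145584609-145584668, mm8, minus strand) read 0.08, -0.08, -0.04 and 0.11 in the wild types and 0.92, 0.40, 0.34 and 0.94 in the mutants. All 4 mutants were above all 4 wild types, with replicates 1 and 4 well over the other 2. The mean of Cyr61 was 0.02 ± 0.09 in wild types and 0.65 ± 0.32 in mutants (SD, n = 4 each). Its log2 fold change of 0.63 (standard error 0.158, 95% interval 0.26 to 1.0) had an adjusted p of 0.065 and so was not called. Cyr61 was called, at 0.71 (adjusted p = 0.0224), when mutant replicate 2 was left out.

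The Ctgf probe (chr10:24287891-24287950, mm8, plus strand) read 1.92, 1.75, 1.78 and 1.87 in the wild types and 2.18, 1.65, 1.87 and 2.27 in the mutants. Mutant replicates 1 and 4 were above every wild type, replicate 3 was among them, and replicate 2 was under them. The log2 fold change of Ctgf was 0.16 (95% interval -0.17 to 0.49, adjusted p = 0.482), and 0.28 without mutant replicate 2 (adjusted p = 0.105). The order of the mutant arrays was alike for these 3 genes: replicate 4 was highest and replicate 1 next for Ankrd1, Cyr61 and Ctgf. Among the wild types, replicates 1 and 4 were also the highest for Cyr61 and Ctgf, and replicate 4 was the highest for Ankrd1 (-4.20). This is a description of 4 arrays a group, and whether the order follows the replicate number was not tested.

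**Figure D1:**
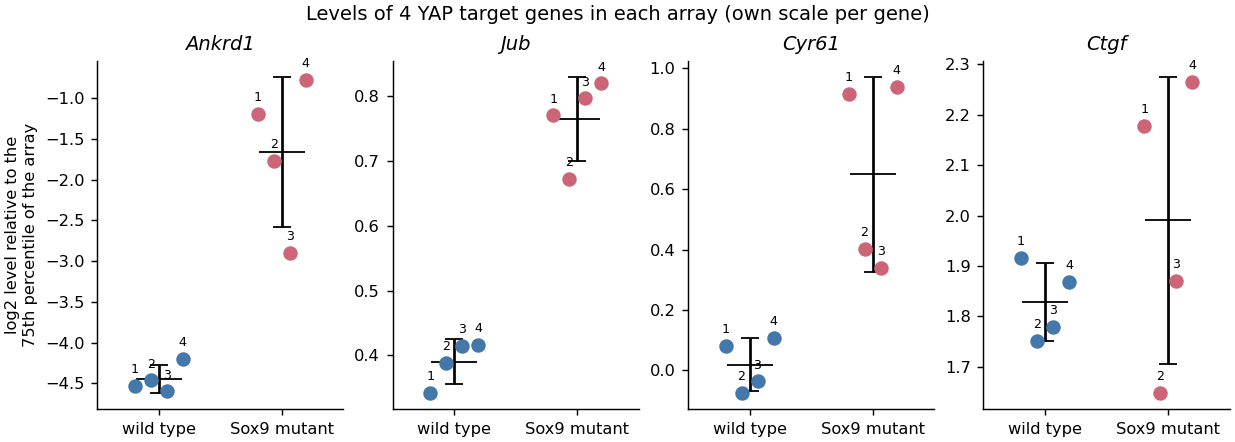
Log2 level, with the 75th percentile of each array at 0 (vertical axis, its own scale for each gene) of Ankrd1, Jub, Cyr61 and Ctgf in the 4 wild-type and 4 mutant arrays. Points are arrays with their replicate number, and bars are the mean ± SD. Mutant and wild-type points do not overlap for Ankrd1, Jub and Cyr61 and overlap for Ctgf. Replicates 1 and 4 are the highest mutants for Ankrd1, Cyr61 and Ctgf, and the highest wild types for Cyr61 and Ctgf.

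Axl, a receptor tyrosine kinase for the ligand GAS6 and a YAP target in tumour cells, did not separate. Its probe (chr7:25466694-25466753, mm8, minus strand) read 0.38, 0.29, 0.55 and 0.51 in the wild types and 0.38, 0.37, 0.56 and 0.49 in the mutants. The ranges of the groups overlapped almost fully. Axl differed by 0.01 on the log2 scale (95% interval -0.18 to 0.21, adjusted p = 0.922).

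**Figure D2:**
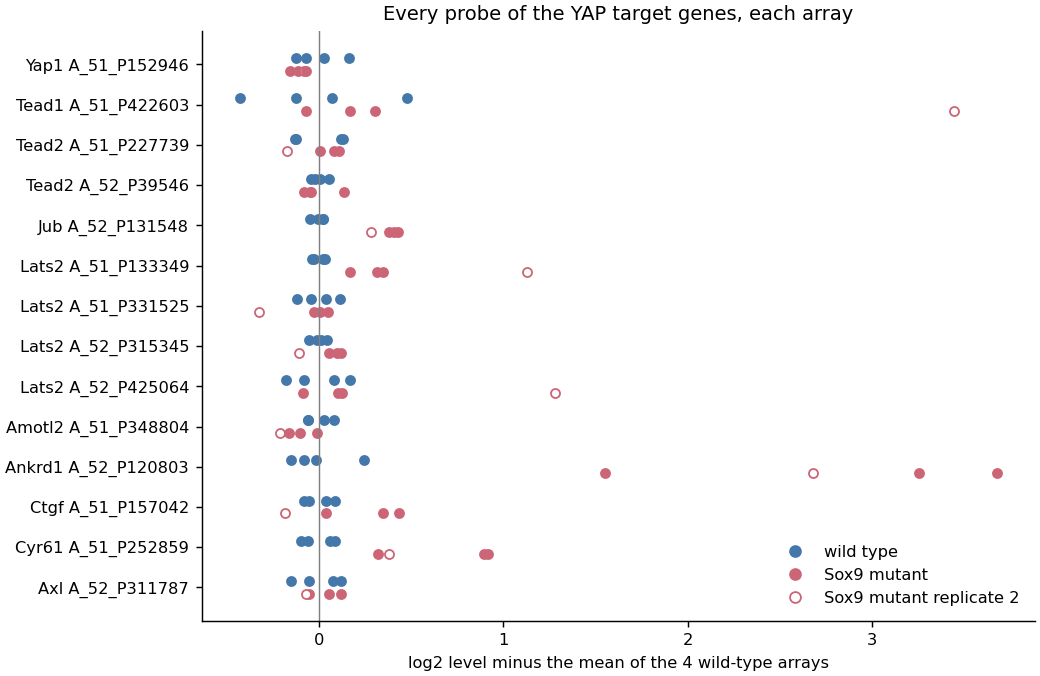
Each of the 14 probes of the set (rows), with the log2 level of each array minus the mean of the 4 wild-type arrays (horizontal axis). Filled points are arrays of either genotype and the hollow point is mutant replicate 2. The Ankrd1 mutants lie furthest right, around a mean difference of 2.79, and the hollow point is far right of the other mutants on the dim probes of Tead1 and Lats2.

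Counted as genes, 2 of the 9 tested members were called higher (Ankrd1 and Jub) and 0 were called lower by limma, while 2.11% of all 19384 features tested were called higher and 3.42% lower. The groups did not overlap, with mutants above, for 3 of the 9 (Ankrd1, Jub and Cyr61), against 10.6% of all features. The median log2 fold change of the 9 was 0.04, and that of all features was 0.00 when rounded. It was above 0 for 6 of the 9. At an unadjusted p under 0.05, 3 of the 9 were higher and 0 lower in the same limma fit, against 1934 and 3010 of all features. When mutant replicate 2 was left out, 3 of the 9 were called higher and 0 lower, against 6.77% and 10.6% of all features, and the median was 0.09. Counted as probes, 13 of the 14 passed the filter on dim probes and 2 were called higher and 0 lower, against 1.61% and 2.23% of all 29462 probes. The groups did not overlap, with mutants above, for 4 of the 13, against 13% of all probes. When mutant replicate 2 was left out, 4 of the 13 were called higher and 0 lower, with Cyr61 and the Lats2 probe at chr14:56645246-56645305 added, against 7.16% and 8.82% of all probes. Over the 13 probes the SD was larger in mutants for 10, and for 6 once mutant replicate 2 was left out.

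**Figure D3:**
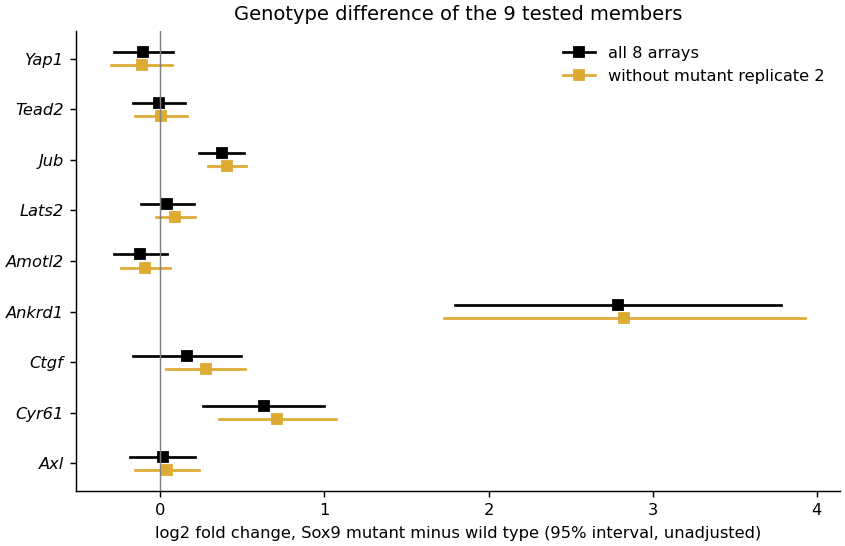
Log2 fold change, mutant minus wild type (horizontal axis), of the 9 tested members with unadjusted 95% intervals, from all 8 arrays (black) and without mutant replicate 2 (yellow). Ankrd1 stands at 2.79, the intervals of Jub and Cyr61 also lie right of 0, and those of Amotl2, Axl, Lats2, Tead2 and Yap1 include 0 in both fits. The interval of Ctgf includes 0 with all arrays and lies right of it without mutant replicate 2.

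Around the set, 35 genes of the Hippo pathway and YAP cofactors (kinases, scaffolds, upstream cadherins, TEAD and VGLL factors) were listed. Of these 34 could be tested, and Vgll2 was well above background on 1 array only. With all 8 arrays limma called 0 of the 34 in either direction, against 2.11% of all features higher and 3.42% lower. At an unadjusted p under 0.05 it gave 5 higher and 3 lower, against 1934 and 3010 of all 19384 features. The median log2 fold change of the list was 0.00 when rounded. The smallest p values belonged to Limd1 and Vgll4. Limd1 encodes a LIM-domain scaffold related to Ajuba, and read 3.05, 2.95, 3.04 and 2.57 in the wild types and 2.45, 2.27, 2.65 and 2.46 in the mutants. Its groups overlapped at wild-type replicate 4, and its log2 fold change was -0.45 (adjusted p = 0.0988). Vgll4 encodes a cofactor that competes with YAP for TEAD factors, and read -0.35, -0.21, -0.23 and -0.62 in the wild types and -0.10, 0.06, -0.05 and 0.02 in the mutants. All 4 mutants lay above all 4 wild types, and its log2 fold change was 0.34 (adjusted p = 0.103). With array median scaling it was -0.06, that is 0.34 above the median of all features. When mutant replicate 2 was left out, Tead4 (0.44) and Rassf1 (0.22) were called higher and Rassf6 (-0.32) lower. Of all features, 6.77% were called higher and 10.6% lower in that fit.

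The published signature of YAP and TAZ targets held 22 tested genes, 6 of them members of the set. In it 2 were called higher, Ankrd1 and Myof, and 0 lower (4 and 1 at an unadjusted p under 0.05 in limma), and its median log2 fold change was 0.06. Of all features 2.11% were called higher and 3.42% lower, and 1934 and 3010 of 19384 had an unadjusted p under 0.05 in these directions. Myof encodes myoferlin, a membrane-repair protein of the ferlin family. Its levels were 0.85, 0.96, 1.04 and 1.16 in the wild types and 1.75, 1.505, 1.65 and 1.71 in the mutants, with no overlap. Myof differed by a log2 fold change of 0.65 (adjusted p = 0.0111), and its adjusted p was under 0.05 in all 8 fits that left out 1 array. It was not called with array median scaling (0.25, adjusted p = 0.669), with normexp background correction (adjusted p = 0.0801, and 0.061 without wild-type replicate 3) or with the replicate block (0.0701), and was called in 16 of the 20 alternatives. When mutant replicate 2 was left out, 3 of the 22 were called higher, with Cyr61 added, and Gadd45a was called lower (-0.65), against 6.77% and 10.6% of all features.

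The other CCN family members, relatives of Ctgf and Cyr61, gave 2 tested genes of 4. Nov (now Ccn3) read -2.48, -3.07, -2.60 and -2.95 in the wild types and -1.45, -1.06, -1.84 and -1.78 in the mutants, with no overlap. Nov was higher by a log2 fold change of 1.24 (adjusted p = 0.0208), and 1.09 without mutant replicate 2 (adjusted p = 0.00843). Its adjusted p was over 0.05, between 0.058 and 0.0659, without wild-type replicate 2, 3 or 4 or mutant replicate 1. Nor was Nov called with array median scaling (0.85, adjusted p = 0.423) or normexp background correction (0.69, adjusted p = 0.868). The adjusted p was 0.0971 with the replicate block and 0.0505 without the filter on dim probes. Nov was called in 11 of the 20 alternatives. Wisp1 was not called (0.23, adjusted p = 0.281), and Wisp2 was not well above background on enough arrays.

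Actin genes and other targets of serum response factor were listed together with the factor itself and its coactivators. The list was read because this factor also drives several YAP readouts, Cyr61 among them. Of the 16 listed genes 0 were called in either direction by limma (0 higher and 1 lower at an unadjusted p under 0.05). Their median log2 fold change was -0.02. The shares of all features called higher and lower were 2.11% and 3.42%. In the same limma fit 1934 and 3010 of 19384 had an unadjusted p under 0.05. The smallest p values belonged to Filip1l (-0.31, adjusted p = 0.157) and Srf (-0.21, adjusted p = 0.203). Without mutant replicate 2, Cnn2 (0.23) was called higher and Filip1l (-0.19) lower, 1 of 16 each way, against 6.77% and 10.6% of all features.

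**Figure D4:**
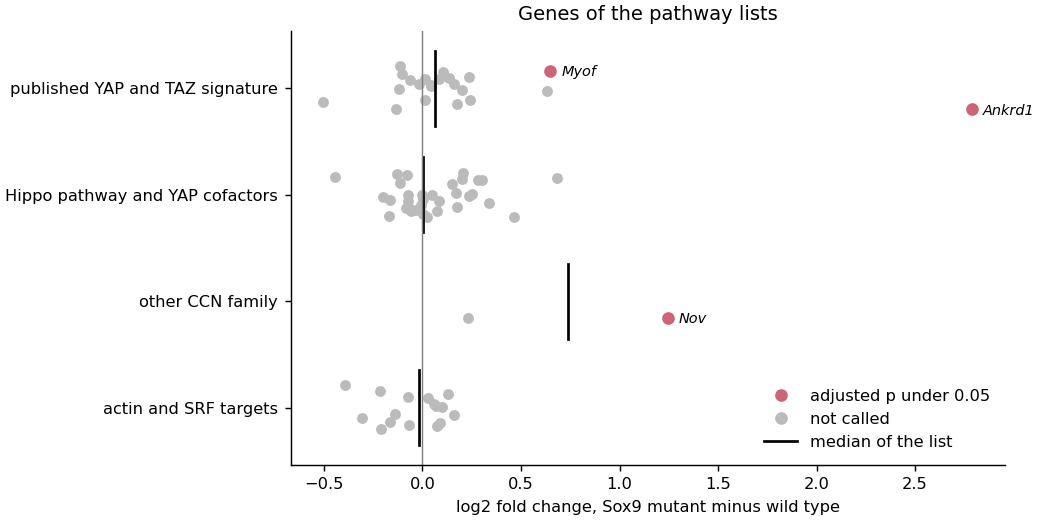
Log2 fold change, mutant minus wild type (horizontal axis), of every tested gene in 4 lists (rows), with called genes in red and the median of each list as a black bar. The called genes are Myof at 0.65, Ankrd1 at 2.79 and Nov at 1.24, and the medians of the 3 larger lists are 0.06, 0.00 and -0.02.

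Ankrd1 is best known from muscle, so muscle markers were read beside it. Of 14 muscle genes 0 were called by limma in either direction (2 higher and 1 lower at an unadjusted p under 0.05). Of all features 2.11% were called higher and 3.42% lower, and 1934 and 3010 of 19384 had an unadjusted p under 0.05. The median log2 fold change of the muscle genes was 0.26, and -0.03 without mutant replicate 2. Their summed linear level (each array's 75th percentile set to 1) was 5.90 to 6.58 in wild types and 5.91 to 7.29 in mutants, with the high value on mutant replicate 2. Once that array was left out, 2 of the 14 were called higher, Myog (1.23) and Des (0.23), against 6.77% of all features. In that fit 0 were called lower, against 10.6% of all features. Actc1 went the other way, with all mutants below all wild types (-0.30 with all arrays, adjusted p = 0.116). All 14 were well above background on at least 7 arrays. The part of muscle RNA in the result for Ankrd1 was not tested.

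Mesenchymal genes, which matter because YAP targets are also expressed in connective tissue, were present in both groups. Of 13, 2 were called higher, Nkx3-2 (0.57) and Barx1 (0.27), and 0 lower, against 2.11% and 3.42% of all features. At an unadjusted p under 0.05 in limma 3 were higher and 2 lower, against 1934 and 3010 of all 19384 features. Lum (-0.46, adjusted p = 0.0771) had all mutants below all wild types. When mutant replicate 2 was left out, Twist1 (0.52) was called higher too and Lum (-0.36) lower, against 6.77% and 10.6% of all features. The summed level of the mesenchymal genes was 376 to 448 in wild types and 296 to 393 in mutants, with the low value on mutant replicate 2. Mutant replicates 1, 3 and 4 were at 354, 393 and 378, so that the groups overlapped. The part of mesenchymal RNA in the results of the set was not tested.

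Other cell types were read in the same way. Of all features limma called 2.11% higher and 3.42% lower, and 6.77% and 10.6% without mutant replicate 2. With all arrays 1934 and 3010 of 19384 had an unadjusted p under 0.05 in these directions. Among 10 endothelial genes limma called 0, with and without mutant replicate 2, and 0 had an unadjusted p under 0.05. Among 8 immune genes it called 0 in both fits, with 2 lower at an unadjusted p under 0.05. Of 5 mesothelial genes Upk1b was called higher in both fits (0.67, and 0.56 without that array), and Msln was lower at an unadjusted p under 0.05 only (-0.48, adjusted p = 0.14). Of 7 erythroid genes the embryonic globin Hbb-y was called higher in both fits (1.67 and 1.48), while the adult globins Hbb-b1 (-0.38) and Hba-a1 (-0.31) were not called. Of 8 neuron and Schwann cell genes the same 4 were called lower in both fits: Sox10 (-1.05), S100b (-1.63), Fabp7 (-1.01) and Elavl4 (-1.05), given with all arrays.

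All 15 markers of pancreatic epithelium were well above background on 8 arrays. Of these 3 were called lower, the progenitor factor Pdx1 (-1.05), the endocrine progenitor factor Neurog3 (-1.89) and the duct-expressed Spp1 (-1.14), and 0 higher, with 1 higher and 5 lower at an unadjusted p under 0.05 in limma. Of all features 2.11% were called higher and 3.42% lower, and 1934 and 3010 of 19384 had an unadjusted p under 0.05 in these directions. When mutant replicate 2 was left out, 2 of the 15 were called higher, the keratins Krt8 (0.31) and Krt18 (0.41). In that fit 4 were called lower, with the insulin gene Ins2 (-0.89) added. The shares of all features were then 6.77% and 10.6%.

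Cyr61 is itself known as an immediate early gene, one induced within minutes by growth factors or stress, so 20 other such genes were listed after the data had been seen. Of these 4 were called higher and 0 lower (7 and 0 at an unadjusted p under 0.05 in limma): Jun (0.71), Ier3 (0.76), Fos (0.50) and Atf3 (1.49). Of all features 2.11% were called higher and 3.42% lower, and 1934 and 3010 of 19384 had an unadjusted p under 0.05. Fosb, a dim gene of the list, had all mutants below all wild types and was not called (-0.77, adjusted p = 0.265). The median of the list was 0.24. With mutant replicate 2 left out, 6 were called higher, with Egr1 (0.56) and Junb (0.64) added, against 6.77% of all features. Their summed level was 76.3 to 80.9 in wild types and 68.1 to 91.0 in mutants, with the low value on mutant replicate 2. On mutant replicate 3, where Ankrd1 and Cyr61 were lowest among the mutants, Fos (-3.27) and Ier3 (-1.53) were also at their lowest, while Atf3 (0.40) was at its highest and Jun was at 2.08 on replicates 1, 3 and 4 alike. The part of this response in the results for Ankrd1 and Cyr61 was not tested.

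The calls of the set depended on how arrays were put on 1 scale. With each array's median in place of its 75th percentile, the median of all features moved to -0.40, and to -0.06 when mutant replicate 2 was left out. On that scale Jub stood at -0.02, that is 0.38 above the median of all features, and Ankrd1 at 2.39. In the latter fit Jub stood at 0.38 and 3 members were called higher. Over the 20 alternative settings Ankrd1 kept a positive log2 fold change, between 1.48 and 3.20, and was called in 12. Jub was called in 9 and Cyr61 in 5.

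**Figure D5:**
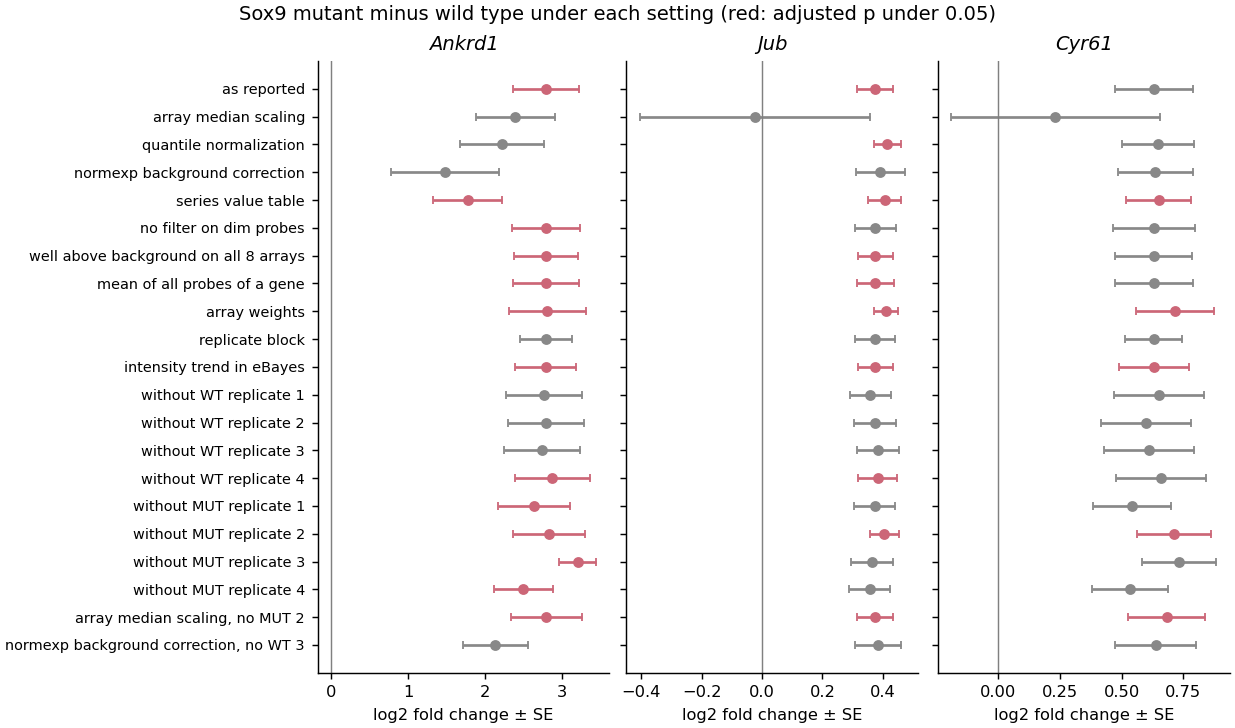
Log2 fold change ± SE, mutant minus wild type (horizontal axis), of Ankrd1, Jub and Cyr61 under the reported setting and 20 alternatives (rows), with an adjusted p under 0.05 in red. Ankrd1 and Cyr61 stay right of 0 in all 21 rows, and Jub does except with array median scaling and all 8 arrays, where it is -0.02.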

How the data were processed

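Per the file headers, the scanner files were written by Agilent Feature Extraction 9.5.3.1 for array design 014868. Their deposited processed signal is an intensity in linear units, background-subtracted and spatially detrended by the scanner software and not normalized between arrays. The values of the deposited series table, an intensity of unstated processing, were used only as an alternative. The submitters' processing notes name limma and no version. Probe positions are those of the files (mm8); no annotation of that build was used, so exon or UTR is not given.

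Control and outlier spots were left out, spots of a probe were averaged as log2, and each array's 75th percentile was subtracted. Probes well above background on at least 4 of 8 arrays were kept (29462). Current symbols came from RefSeq (GRCm38.p6): 24496 probes matched by accession, 6234 by symbol, 2386 by synonym and 8058 had none. The brightest probe stood for a gene. Genotype was fitted with limma 3.58.1 in R 4.3.3 (lmFit, eBayes, Benjamini-Hochberg over all 19384 features; a second fit used every probe) and called at an adjusted p under 0.05. The 4 arrays a group limit the precision, and an exact permutation test of 4 against 4 cannot go below 0.0286.

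Nothing states that equal numbers pair wild-type and mutant samples, so the main fit had no replicate block. Same-numbered arrays had correlations of deviations between -0.02 and 0.13, which cannot exclude pairing. The members and lists were chosen with earlier results of these data known. Named genes were Sox9, all members, up to 4 called genes of a pathway list and the called genes of marker lists. Where no gene of a pathway list was called, the 2 with the smallest p were named. Genes called only without mutant replicate 2, Actc1, Msln, Hbb-b1, Hba-a1 and those of the immediate early list were named after their values were seen. Protein sequences were not used here, and 1 listed pathway gene is not reported here.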

Additional observations from a re-analysis of the deposited data

Results flagged for a closer look

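Of 38 groups of 4 arrays examined, 5 held an array whose gap to its nearest neighbour was, as a share of the group's range, over the 95% critical value of Dixon's test, where chance gives about 1 in 20. Mutant replicate 2 was the array in 4 of them, each on a dim probe. It stood at a log2 level of -3.27 on the Tead1 probe of the set, with the nearest mutant at -6.41. On the dimmest Lats2 probe it stood at -2.97, with the nearest mutant at -4.12. It was at -0.57 on the third Sox9 probe, with the nearest at -2.12, and at -1.34 on the dimmer probe named 2610024B07Rik, with the nearest at -2.15. The other was Tead2 on its brighter probe, where mutant replicate 3 stood at 2.92 and the nearest mutant at 2.74. Mutant replicate 2 also had the highest median signal of all 8 arrays.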

How the results depend on the processing

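The number of members called higher was 2 as reported, 0 with array median scaling, 0 with normexp background correction, 1 with quantile normalization, 1 without the filter on dim probes, and 0 to 3 with single arrays left out. The corresponding number of member probes was 2 as reported, 0 with array median scaling, 0 with normexp, 1 with quantile normalization, 1 without the filter, 4 from the series table, 4 with array weights, and 0 to 4 with single arrays left out. Of pathway genes outside the set, 2 were called higher as reported, 0 with array median scaling, 0 with normexp, 7 from the series table, 1 without the filter, 12 with array weights, and 1 to 5 with single arrays left out. Of these genes 0 were called lower as reported, 1 from the series table, 1 with the mean of a gene's probes, 4 with array weights, 1 with an intensity trend, and 0 to 3 with single arrays left out. No setting called a member lower. The cause of these shifts was not tested, except that array median scaling moved the median of all features to -0.40. Added after the data were seen, array median scaling without mutant replicate 2 called 3 pathway genes lower, and normexp without wild-type replicate 3, whose normexp median stood apart at a log2 of 10.5, called 0 members, 0 member probes and 0 pathway genes higher.

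With the replicate number as a block, 0 members, 0 member probes and 0 pathway genes were called higher, and 145 of all features were called in place of 1072. Whether equal numbers pair the samples is not stated. A slide block could not be fitted, since each slide held 1 genotype. Over all features 45 were called with array median scaling, 80 with normexp, 397 without the filter, 2182 from the series table, 1630 with an intensity trend, 4684 with array weights and 357 to 3362 with single arrays left out.

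The median member log2 fold change was 0.04 as reported, -0.36 with array median scaling, and 0.02 to 0.09 with single arrays left out. Array median scaling turned Ctgf to -0.24, Jub to -0.023, Axl to -0.38, Lats2 to -0.36 and Vgll4 to -0.062. Tead2 turned to 0.12 with quantile normalization, 0.12 with normexp, 0.15 from the series table, 0.00081 with the mean of its probes, 0.0072 with array weights, and lay between -0.056 and 0.015 with single arrays left out. Tead1 turned to 0.11 with the mean of its probes, Lats2 to -0.0089 with normexp without wild-type replicate 3, and Axl lay between -0.035 and 0.055 with single arrays left out. Probes under background, such as the Tead1 probe of the set, give no usable level.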
